A study of Homo sapiens with 27 samples.

Results

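A set of 10 genes of the smooth muscle contractile apparatus was followed across RNA sequencing libraries of endothelial cells: ACTA2, TAGLN, CNN1, MYL9, TPM1, TPM2, CALD1, MYLK, MYLK2 and MYH11. They were taken by symbol from a table of gene counts, where all 10 were found among 60604 gene entries. The cells were EA.hy926, a line from a fusion of umbilical vein endothelium with a lung carcinoma line, and 27 libraries fell into 7 groups. Senescent ECM and young ECM were cells grown for 48 h on matrix left by decellularised mesenchymal stromal cells (MSCs), senescent CM and young CM were cells in an equal mix of their own medium with medium conditioned by MSCs, and senescent co-culture and young co-culture were cells grown together with MSCs. Control cells were kept alone. The MSCs were ASC52telo, an adipose-derived line immortalised with telomerase. Young MSCs were untreated. Senescent MSCs had been treated for 18 h with 1.5 µg/mL of mitomycin C, which crosslinks DNA, and held for a further 10 days. The comparisons ask what each way of meeting MSCs does to the endothelial cells and whether MSC senescence alters it.

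In contractile cells, myosin heads pull on actin filaments once the regulatory light chain of myosin is phosphorylated. Calcium-loaded calmodulin switches on the kinases that add this phosphate, and a phosphatase takes it off. Tropomyosins, caldesmon and calponin lie along the actin filament and set how readily myosin can bind it. Endothelial cells use a related, non-muscle form of the same machinery for stress fibres and for opening and closing their junctions, and the strongly smooth muscle-restricted genes, such as those of the heavy chain and calponin, are used to mark smooth muscle. Serum response factor (SRF) reads many of these genes through a short promoter element called the CArG box.

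Both lines are single immortalised lines, and the endothelial one also carries carcinoma chromosomes. No source used here says that endothelial cells were separated from MSCs before lysis in co-culture, and the extraction label names MSCs where the cell type label names endothelial cells. A co-culture library may therefore hold RNA of both, and its levels cannot be assigned to the endothelial cells alone. Each group had 4 libraries, except 3 in senescent co-culture, which has no replicate 1. No source says that replicates were separate cultures, and p-values therefore reflect only spread among libraries, which could be technical. Total counts ran from 66320519 to 111512357 per library. In all, 13 of 15 endothelial markers averaged at least 1 CPM in every group; CLDN5 had no count in any control library of replicates 2 to 4. Of 6 blood cell markers, 1 reached that level.

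Replicate 1 stood apart from the other libraries before any comparison. COL1A1, the collagen I gene that marks the MSCs, had 2281 CPM (counts relative to the library total, TMM scaled) in replicate 1 of senescent ECM, 1887 of young ECM, 5262 of senescent CM, 4527 of young CM and 4034 of control. Replicates 2 to 4 of the same groups held 4.28 to 10.3 CPM. Replicate 1 of young co-culture differed in another way: COL1A1 was at 30.2 CPM, under the 47.3 to 71.7 CPM of the other young co-culture libraries, and CALD1 was at 28.7 CPM against 227 to 268 CPM there. The first 5 of these libraries go against their labels, which put no live MSC beside the endothelial cells in those groups, and whether their labels are right is not known; PECAM1, an endothelial adhesion gene, stood at 237 to 307 CPM in them, against 404 to 734 CPM in replicates 2 to 4 of the same groups. All comparisons therefore use replicates 2 to 4, and replicate 1 is given apart under the name on its label. A gene was called changed at an adjusted p under 0.05 in edgeR's quasi-likelihood test over all genes of the fit, with Benjamini-Hochberg adjustment, and every adjusted p below is from that test unless another tool is named. A log2 fold change is given with its standard error and a mean CPM with its SD over 3 libraries.

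The promoters are shown first, because the CArG box is the element by which this gene set is usually described. RefSeq windows on GRCh38.p14 were present for 6 of the 10 genes, ACTA2, TPM1, TPM2, CALD1, CNN1 and MYLK, with 11 start sites between them. The box was searched as CC, then 6 bases of which at least 5 are A or T, then GG, a pattern that reads the same on both strands. In all, 3 of the 11 windows held a match, against 8.13% of all 35116 windows of 300 bases. The windows below run 5′ to 3′ over the 250 bases before a start, and capitals mark CArG matches. The first is the smooth muscle start of ACTA2, with 2 boxes, and the other 2 belong to CNN1 and TPM1, whose windows held none.
ACTA2, chr10:88952774-88953023 (- strand): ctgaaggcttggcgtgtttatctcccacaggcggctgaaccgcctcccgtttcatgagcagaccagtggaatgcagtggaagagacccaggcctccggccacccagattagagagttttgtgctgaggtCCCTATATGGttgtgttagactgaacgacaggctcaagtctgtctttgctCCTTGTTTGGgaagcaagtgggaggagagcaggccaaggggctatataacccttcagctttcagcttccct
CNN1, chr19:11538601-11538850 (+ strand): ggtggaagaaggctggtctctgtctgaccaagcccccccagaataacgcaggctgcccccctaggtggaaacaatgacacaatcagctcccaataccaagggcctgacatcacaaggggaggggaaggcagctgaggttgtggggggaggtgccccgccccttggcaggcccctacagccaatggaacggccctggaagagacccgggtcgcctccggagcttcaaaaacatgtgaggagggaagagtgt
TPM1, chr15:63048239-63048488 (+ strand): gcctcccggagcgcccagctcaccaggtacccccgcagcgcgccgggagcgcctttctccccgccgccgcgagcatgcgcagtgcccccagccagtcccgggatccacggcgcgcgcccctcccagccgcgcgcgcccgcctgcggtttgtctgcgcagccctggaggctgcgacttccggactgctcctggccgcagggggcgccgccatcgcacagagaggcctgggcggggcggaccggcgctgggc
The ACTA2 boxes are CCCTATATGG, at 121 to 112 bases before the start, and CCTTGTTTGG, at 71 to 62 bases before it. A start within MYLK carried CCTTTTATGG at 94 to 85 bases before it, and 1 of the 4 CALD1 starts carried CCTAAAGAGG at 26 to 17 bases before it. That CALD1 window, from 134711249, lies before the annotated gene, which starts at 134744252. These matches describe the letters only. Whether the boxes bear on the levels was not tested. The 1 TPM1 window, from 63048239, lies inside the gene, which starts at 63042632, so the bases before that first start were not searched.

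The genes stood at very different levels in the endothelial cells. Per kilobase of annotated exon, control cells had 46.3 CPM of TPM2, 22.8 of CALD1, 19.5 of TPM1, 4.42 of ACTA2, 3.11 of MYLK2, 1.57 of MYLK, 0.617 of TAGLN, 0.483 of MYL9 and 0.0139 of CNN1. CALD1 and TPM1 overlapped in range over the control libraries on that scale, as did TAGLN and MYL9, so their order is not settled. ACTA2 and MYLK2 did not overlap. The order also depends on the length used, which joins all annotated exons of a gene. That length was 22167 bases for MYLK and 12876 for TPM1, against 2976 for MYLK2 and 3248 for TPM2. Without it, control cells had 34.9 CPM of MYLK against 9.26 of MYLK2, and 252 of TPM1 against 150 of TPM2, the opposite order for both pairs. MYH11, the smooth muscle myosin heavy chain, had 1 count in all 27 libraries together, in senescent CM replicate 3. The name smooth muscle therefore describes the list and not the cells: of 17 further smooth muscle and mural genes, 4 averaged at least 1 CPM in control cells, and CASQ2, PLN, KCNMB1 and HIGD1B had no count there.

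**Figure D1:**
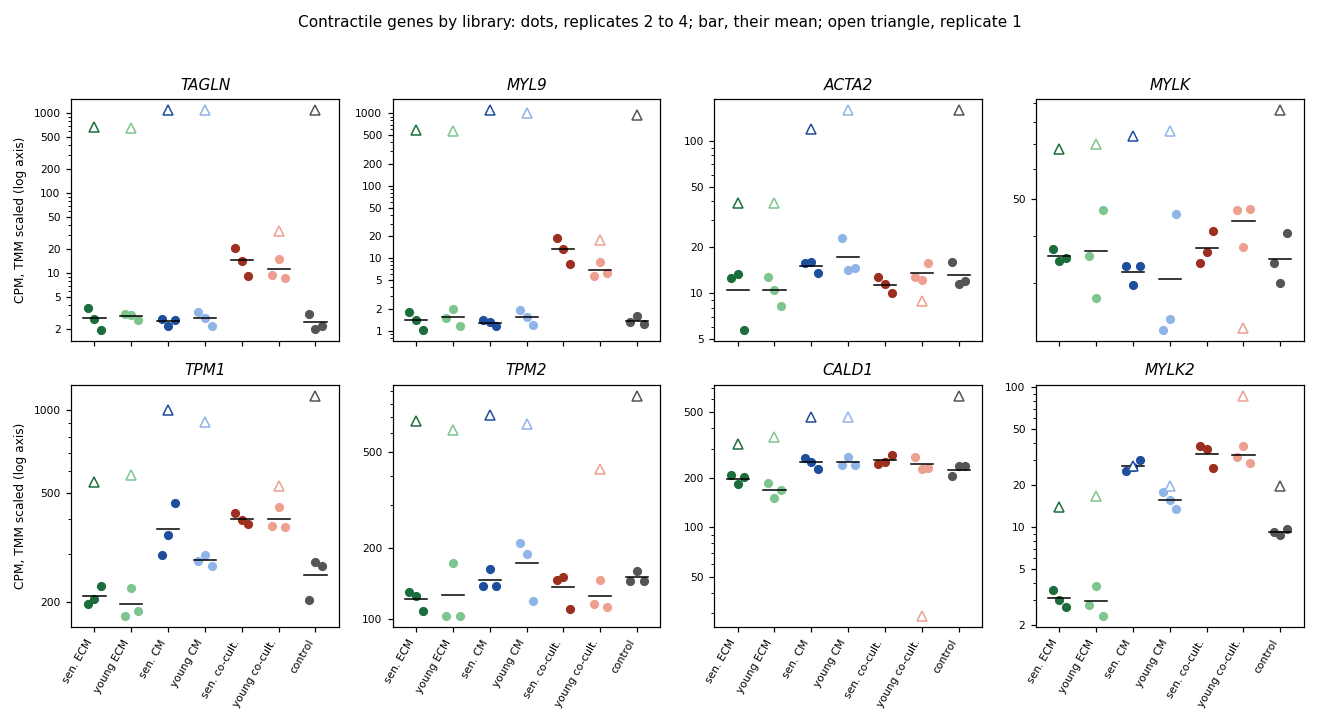
CPM of 8 contractile genes in every library (log axes), by group: dots are replicates 2 to 4, bars their means, open triangles replicate 1. TAGLN and MYL9 are higher in both co-cultures than in control, and MYLK2 has its lowest means on ECM and its highest in co-culture. Replicate 1 of ECM, CM and control stands above the other libraries of its group for TAGLN, MYL9, TPM1, TPM2, CALD1 and ACTA2.

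Few of the genes moved without contact with MSCs. Of the 8 that passed the low-count filter, 1 was lower on senescent ECM and 1 on young ECM, and it was MYLK2 in both. Over all genes, 0.0777% were called lower on senescent ECM and 0.189% on young ECM, or 0.3% and 0.649% in either direction. In conditioned medium 1 of 8 was higher with senescent CM, again MYLK2, against 0.305% of all genes higher and 0.505% in either direction, and none with young CM, where 0 of 18015 genes were called by edgeR and 846 had an unadjusted p under 0.05. CNN1 and MYH11 were too low to enter that fit. The median log2 fold change of the 8 genes was −0.22 on senescent ECM and −0.29 on young ECM, and 0.10 in senescent CM and 0.21 in young CM; over all genes it was −0.013 and 0.0025 on the matrices and −0.0056 and 0.0082 in the media, in the same order.

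Co-culture gave more calls. Of the 8 genes that pass the low-count filter on control libraries alone, 4 were higher with senescent MSCs and 4 with young MSCs, in each case TAGLN, MYL9, TPM1 and MYLK2, and none was lower. CNN1 was also called higher in both, but it passed the filter only through the co-culture libraries in which it was high, so it had to differ and is left out of these counts. Of all genes, 5.82% were called higher in senescent co-culture and 6.71% in young co-culture, or 8.05% and 9.68% in either direction. The median log2 fold change of the 8 genes was 0.44 in senescent co-culture and 0.51 in young co-culture, against 0.016 and 0.015 over all genes. These comparisons share the control libraries. The median hides a wide spread, since MYL9 reached 3.32 in senescent co-culture while TPM2 stood at −0.13 there and ACTA2 at −0.20.

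**Figure D2:**
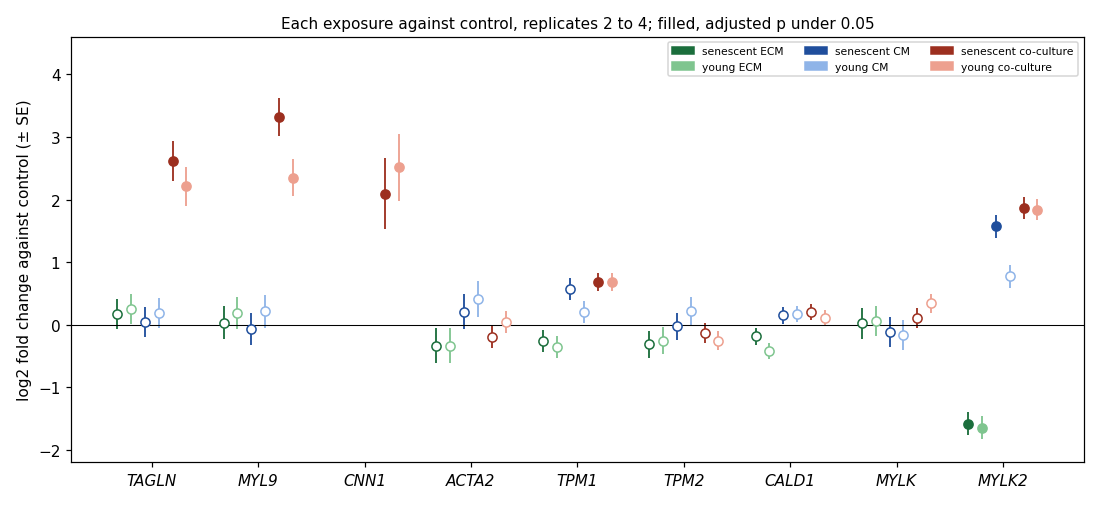
Log2 fold change against control with its standard error for the 9 contractile genes that could be tested, by exposure, replicates 2 to 4; filled points passed an adjusted p of 0.05. MYLK2 is below 0 on both matrices and above it in both co-cultures; the TPM1 points in co-culture, at 0.69 and 0.68, fall below 0 when libraries are scaled by endothelial markers, at −0.25 with senescent and −0.17 with young MSCs.

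Myosin light chain kinases act first in the pathway, and MYLK2 was the member that followed the mode of exposure most closely. MYLK2 (ENSG00000101306.11, chr20:31819308-31834689, + strand, GRCh38) is the kinase known mainly from skeletal muscle. It had 3.58, 3.03 and 2.71 CPM on senescent ECM, against 9.27, 8.84 and 9.68 CPM in control. On young ECM it had 2.81, 3.80 and 2.31 CPM. All 6 matrix libraries lay below all 3 control libraries. MYLK2 fell by 1.58 ± 0.19 on the log2 scale on senescent ECM (adjusted p = 0.00124) and by 1.64 ± 0.19 on young ECM (adjusted p = 0.000864, edgeR). The matrix groups overlapped, and their difference was 0.06 ± 0.19 (adjusted p = 1).

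In conditioned medium MYLK2 lay on the other side of control. Senescent CM libraries had 25.1, 26.7 and 30.3 CPM, young CM libraries 17.7, 15.6 and 13.5 CPM, and the 3 groups did not overlap in the order senescent CM, young CM, control. The difference from control was 1.57 ± 0.19 in senescent CM (adjusted p = 0.00106) and 0.77 ± 0.18 in young CM, where the adjusted p of 0.404 did not pass. Senescent CM exceeded young CM by 0.80 ± 0.18, which also missed the threshold (adjusted p = 0.325). DESeq2 on the same libraries gave adjusted p = 0.0337 for young CM against control and 0.0240 for senescent against young CM, so these MYLK2 calls depend on the test.

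In co-culture MYLK2 had 37.9, 36.2 and 26.3 CPM with senescent MSCs and 31.7, 38.3 and 28.6 CPM with young MSCs. Both groups lay above control and overlapped each other. The rise was 1.86 ± 0.17 with senescent MSCs (adjusted p = 5.6e-05) and 1.84 ± 0.17 with young MSCs (adjusted p = 0.000106), and the difference between them was 0.03 ± 0.17 (adjusted p = 1). Between its lowest group mean, 2.97 CPM on young ECM, and its highest, 33.5 CPM in senescent co-culture, MYLK2 covered an 11.3-fold range, the widest of the 9 genes with counts in most libraries. Its level in replicate 1 was 13.9 CPM in senescent ECM, 16.6 in young ECM, 27.5 in senescent CM, 19.6 in young CM, 87.1 in young co-culture and 19.8 in control. In senescent CM that value fell among the other 3 libraries, and in each other group with a replicate 1 it lay above them. The TMM factor of young co-culture replicate 1 was 0.459, against 1.07, 1.06 and 1.06 in replicates 2 to 4, which raises its CPM. Its place above those libraries in MYLK2 depends on that factor.

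The pattern of MYLK2 was shared closely by its neighbour. Among 9926 genes, FOXS1, which encodes a forkhead transcription factor, had the highest correlation with MYLK2 over the 21 libraries of replicates 2 to 4 (Pearson r = 0.982 on log2 CPM), and EDN1, the gene of the vasoconstrictor endothelin-1, came second (r = 0.981). These values, 0.982 and 0.981, are too close to rank the 2 genes. The libraries share their 7 groups, and group differences carry much of such an r. Candidates had to average at least 5 CPM in a group, which FOXS1 did in senescent CM and the co-cultures alone. Its likeness therefore follows in part from that rule. FOXS1 (chr20:31844301-31845619, − strand) ends 9611 bases from MYLK2 and its RNA was 0.227 ± 0.109 CPM on senescent ECM, 0.261 ± 0.053 on young ECM, 5.94 ± 1.58 in senescent CM, 2.74 ± 0.67 in young CM, 6.10 ± 1.73 in senescent co-culture, 8.35 ± 0.10 in young co-culture and 1.54 ± 0.22 in control. FOXS1 fell by 2.78 ± 0.32 on senescent ECM (adjusted p = 0.00124) and by 2.56 ± 0.31 on young ECM (adjusted p = 0.00098). It was higher by 1.95 ± 0.28 in senescent CM (adjusted p = 0.00476), 2.00 ± 0.21 in senescent co-culture and 2.45 ± 0.21 in young co-culture (adjusted p = 0.000137 and 7.6e-05), with young CM not called (0.85 ± 0.28, adjusted p = 0.86). Other protein-coding genes within 100000 bases did not share the pattern, and non-coding genes were not examined. TPX2, a spindle assembly factor 17502 bases away, had r = 0.42, and BCL2L1, a survival gene, had r = −0.79. DUSP15 and TTLL9 averaged under 0.1 CPM in every group.

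**Figure D3:**
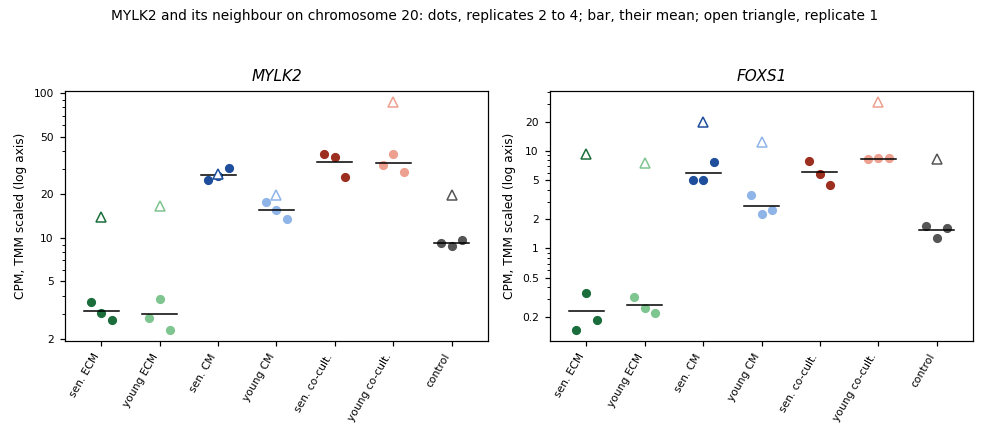
CPM of MYLK2 and FOXS1 in every library (log axes), by group: dots are replicates 2 to 4, bars their means, open triangles replicate 1. By group mean, both genes are lowest on ECM, above control in senescent CM and highest in co-culture. Libraries of senescent co-culture and senescent CM overlap for both genes. FOXS1 averages 0.227 and 0.261 CPM on the matrices against 1.54 CPM in control.

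MYLK (ENSG00000065534.19, chr3:123610049-123884331, − strand), the kinase of smooth muscle and endothelium, did not follow its relative. It averaged 35.5 ± 1.3 CPM on senescent ECM, 36.6 ± 9.7 on young ECM, 32.1 ± 2.1 in senescent CM, 30.8 ± 12.9 in young CM, 37.2 ± 3.7 in senescent co-culture, 43.9 ± 5.6 in young co-culture and 34.9 ± 5.4 in control. No comparison of the main fits called it, and its largest difference from control was 0.34 ± 0.16 in young co-culture (adjusted p = 0.221). With a replicate block it was called higher in co-culture than in CM. Within young CM 1 library, at 45.6 CPM, stood above the others at 22.5 and 24.1 CPM. Genes most like MYLK were LRBA (r = 0.949) and NCOA2 (r = 0.930).

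MYL9 (ENSG00000101335.10, chr20:36541484-36551447, + strand) encodes the regulatory light chain that these kinases phosphorylate in smooth muscle. It had 18.8, 13.4 and 8.23 CPM in senescent co-culture and 5.60, 8.83 and 6.28 CPM in young co-culture, against 1.31, 1.57 and 1.21 CPM in control. All co-culture libraries lay above all control libraries, and the co-culture groups overlapped by 1 library. MYL9 rose by 3.32 ± 0.30 with senescent MSCs (adjusted p = 4.9e-05) and by 2.35 ± 0.29 with young MSCs (adjusted p = 0.000459). The senescent co-culture exceeded the young one by 0.97 ± 0.27, with adjusted p = 0.326, and none of the tested contractile genes passed in that comparison, where 0.395% of all genes did. Without the low-count filter the same MYL9 difference, 0.93, had adjusted p = 0.000472. On ECM and in CM it averaged between 1.29 and 1.55 CPM and was not called.

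ACTA2 (ENSG00000107796.13, chr10:88935074-88991339, − strand), smooth muscle alpha-actin, had 12.7, 11.4 and 10.1 CPM in senescent co-culture and 12.7, 12.1 and 15.7 CPM in young co-culture, against 16.1, 11.4 and 11.9 CPM in control. These groups overlapped, with differences of −0.20 ± 0.18 (adjusted p = 0.58) and 0.05 ± 0.17 (adjusted p = 0.906). It averaged 10.5 ± 4.2 CPM on senescent ECM, 10.5 ± 2.2 on young ECM, 15.1 ± 1.4 in senescent CM and 17.2 ± 5.0 in young CM, none called against control at 13.2 ± 2.6. Across libraries ACTA2 tracked neither TAGLN (r = 0.011) nor MYL9 (r = −0.018).

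TPM1 (ENSG00000140416.23, chr15:63042632-63071915, + strand), one of the tropomyosins that wind along actin, had 422, 399 and 386 CPM in senescent co-culture and 380, 444 and 376 CPM in young co-culture, against 204, 280 and 270 CPM in control. Both groups lay above control without overlap. TPM1 rose by 0.69 ± 0.14 with senescent MSCs (adjusted p = 0.012) and by 0.68 ± 0.14 with young MSCs (adjusted p = 0.0131), although with libraries scaled by the endothelial markers the values were −0.25 and −0.17. That scaling moved the median of all genes by −0.92 with senescent and −0.83 with young MSCs, to −0.90 and −0.82, and TPM1 stood 0.65 above the median in each. Without senescent co-culture replicate 2 the adjusted p was 0.0704, and without replicate 3 it was 0.0591. In senescent CM TPM1 had 297, 350 and 461 CPM, all above control, but the difference of 0.56 ± 0.18 was not called (adjusted p = 0.273). Of the contractile genes, TPM1 was the closest to MYLK2 (r = 0.935).

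TPM2 (ENSG00000198467.16, chr9:35681992-35690121, − strand), a second tropomyosin, averaged 136 ± 22 CPM in senescent co-culture and 125 ± 18 CPM in young co-culture, against 150.3 ± 8.6 CPM in control. It was called in no comparison of the main fits, and its group means spanned 121 CPM on senescent ECM to 172 CPM in young CM. With a replicate block it was called lower in co-culture than in CM. TPM2 and MYLK went in opposite ways from library to library (r = −0.83 over 21 libraries). Within young CM, TPM2 had 208, 188 and 119 CPM in the libraries in which MYLK had 22.5, 24.1 and 45.6 CPM. This was not particular to the 2 genes. Genes most like TPM2 were HSD17B10 (r = 0.942) and DCXR (r = 0.936). In the young CM library with 119 CPM of TPM2, both were at their lowest of that group, 57.9 CPM each. LRBA and NCOA2, the genes most like MYLK, were at their highest there, 42.8 and 22.6 CPM.

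CALD1 (ENSG00000122786.20, chr7:134744252-134970728, + strand), caldesmon, which restrains myosin on the filament, had the lowest coefficient of variation of the 10 genes over the 21 libraries, 0.150 against 0.198 for MYLK and 0.201 for TPM2. Its highest group mean was 1.52 times its lowest, however, against 1.43 times for MYLK and 1.42 times for TPM2. Group means of CALD1 were 197 ± 12 CPM on senescent ECM, 168 ± 17 on young ECM, 248 ± 19 in senescent CM, 248 ± 16 in young CM, 255 ± 18 in senescent co-culture, 241 ± 23 in young co-culture and 224 ± 18 in control. All 3 young ECM libraries, at 185, 151 and 169 CPM, lay below the control libraries at 204, 235 and 234 CPM, with a difference of −0.42 ± 0.13 that was not called (adjusted p = 0.243).

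TAGLN (ENSG00000149591.17, chr11:117199321-117204782, + strand), the actin-bundling protein transgelin, had 20.7, 14.1 and 9.30 CPM in senescent co-culture and 9.53, 15.2 and 8.67 CPM in young co-culture, against 3.11, 1.98 and 2.16 CPM in control. Every co-culture library was above every control library, and the co-cultures overlapped. TAGLN rose by 2.61 ± 0.32 with senescent MSCs (adjusted p = 0.000359) and by 2.21 ± 0.31 with young MSCs (adjusted p = 0.00117). On ECM and in CM its means ran from 2.49 to 2.89 CPM, against 2.42 CPM in control.

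CNN1 (ENSG00000130176.8, chr19:11538717-11550323, + strand), calponin, was close to undetected outside co-culture. It had 23, 15 and 4 counts in senescent co-culture and 18, 32 and 26 counts in young co-culture, against 4, 3 and 5 counts in control. In CPM the co-culture libraries, at 0.287, 0.170 and 0.0563 with senescent and 0.180, 0.271 and 0.243 with young MSCs, were all above the control libraries at 0.0361, 0.0309 and 0.0532. On that scale 3 counts correspond to 0.0271 to 0.0319 CPM in the control libraries, so the control level is at the edge of what this depth can show. CNN1 entered the fit only through its co-culture counts, and its fitted fold change rests on the few control counts and is no bound. The fitted difference was 2.10 ± 0.57 in senescent co-culture (adjusted p = 0.0431) and 2.52 ± 0.54 in young co-culture (adjusted p = 0.013). The senescent call was lost without control replicate 2, 3 or 4 or without senescent co-culture replicate 2 or 3, with adjusted p between 0.0797 and 0.211.

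TAGLN and MYL9 moved with markers of stromal cells. The gene closest to each of them over the 21 libraries was THY1, a surface marker of MSCs (r = 0.980 with TAGLN and 0.990 with MYL9), followed by POSTN, a matrix protein gene, for TAGLN (r = 0.971) and by COL1A1 for MYL9 (r = 0.984); with each other they reached r = 0.981. Candidates had to average at least 5 CPM in a group, which THY1 did in senescent co-culture alone (7.16 CPM, with 4.43 in young co-culture and 0.934 in control) and POSTN in the co-cultures alone (14.6 and 10.4 CPM, with 1.04 in control), so their likeness follows in part from that rule. COL1A1 had 169, 133 and 118 CPM in senescent co-culture and 71.7, 61.3 and 47.3 CPM in young co-culture, against 5.80, 6.18 and 5.50 CPM in control. The senescent co-culture library highest in TAGLN and MYL9 was also highest in COL1A1, THY1 and POSTN. The young co-culture library highest in TAGLN and MYL9 was highest in THY1 and POSTN but not in COL1A1, at 61.3 CPM. In that group the library with the highest COL1A1, 71.7 CPM, had the lowest MYL9, 5.60 CPM. Of 19 stromal markers tested, 15 were higher and 1 lower in senescent co-culture and 14 higher and 1 lower in young co-culture. Over all genes, 8.05% and 9.68% were called in either direction. Markers that passed the low-count filter only through co-culture are not set apart in these counts. Of the 20 listed, 12 averaged at least 1 CPM in control, 18 in senescent and 17 in young co-culture. The 20 summed to 2685 to 3079 CPM in senescent co-culture, 2263 to 2928 CPM in young co-culture and 1212 to 1898 CPM in control. Their part in the contractile result was not tested. In bulk RNA of co-cultures, MSC transcripts and endothelial expression of the same gene cannot be told apart. Nor can fewer cells of a type and less RNA per cell.

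The ratio of each gene to COL1A1 was set beside that of the replicate 1 libraries, whose labels are in doubt. TAGLN per COL1A1 was 0.0788 to 0.123 in senescent co-culture, 0.133 to 0.248 in young co-culture and 0.211 to 0.348 in replicate 1 of ECM, CM and control. MYL9 per COL1A1 was 0.0697 to 0.111, 0.0781 to 0.144 and 0.213 to 0.303 in the same libraries. ACTA2 per COL1A1 was 0.0749 to 0.0856, 0.177 to 0.333 and 0.0170 to 0.0393. No endothelial level was subtracted from these ratios. ACTA2 had 11.4 to 16.1 CPM in control and 10.1 to 15.7 CPM over the co-cultures, so its ratios there do not give the content of the MSCs. Replicate 1 of young co-culture lay apart, at 1.11 for TAGLN, 0.597 for MYL9 and 0.295 for ACTA2. TERT, carried by the immortalised MSCs, had 4.50, 3.86 and 3.00 CPM in senescent co-culture and 7.97, 6.40 and 5.94 CPM in young co-culture, against 1.87, 1.52 and 1.55 CPM in control. Every young co-culture library was above every senescent one for TERT and below every one for COL1A1.

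**Figure D4:**
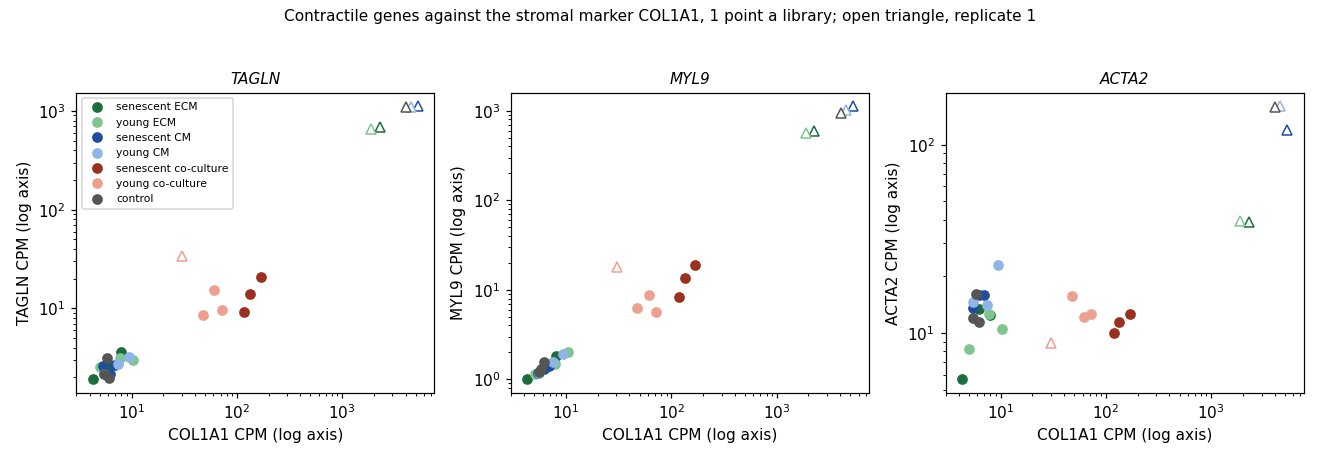
CPM of TAGLN, MYL9 and ACTA2 against CPM of COL1A1, 1 point per library (log axes); open triangles are replicate 1. TAGLN and MYL9 are highest in the replicate 1 libraries of ECM, CM and control, where COL1A1 is highest, and next highest in co-culture, while ACTA2 stays between 5.68 and 23 CPM over replicates 2 to 4.

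Replicate 1 of ECM, CM and control held the highest levels of most members. TAGLN lay between 657 and 1111 CPM in those 5 libraries, MYL9 between 571 and 1119 CPM, TPM2 between 621 and 864 CPM, ACTA2 between 38.7 and 160 CPM and CNN1 between 2.64 and 16.9 CPM. For every member with counts there except TPM2, the CM and control libraries were all higher than the ECM ones: ACTA2, for example, had 38.7 and 39.2 CPM on senescent and young ECM, 120 and 160 CPM in senescent and young CM and 159 CPM in control. MYH11 had no count in any of them. With replicate 1 included, no contractile gene was called against control in any of the 6 exposures, and TAGLN, MYL9, CNN1 and TPM1 took values below 0 in both co-cultures.

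Modes of exposure were also compared directly, as means over senescent and young MSCs in a fit of all 21 libraries. CNN1, which passed the filter only through co-culture, is given apart from the counts of the other 8. ECM against CM gave 4 of 8 genes lower and none higher, where 6.89% of all genes were called lower and 15.5% in either direction. MYLK2 had a log2 fold change of −2.78 ± 0.14 (adjusted p = 1.52e-10), TPM1 had −0.68 ± 0.11 (adjusted p = 0.000169), CALD1 −0.45 ± 0.08 (adjusted p = 0.000715) and ACTA2 −0.63 ± 0.19 (adjusted p = 0.0244). The ACTA2 call was lost without young CM replicate 2, senescent CM replicate 3 or young ECM replicate 4 (adjusted p between 0.0554 and 0.0785). Co-culture against ECM gave 5 of 8 higher, where 13.8% of all genes were called higher and 26.9% in either direction: MYLK2 3.42 ± 0.14, MYL9 2.69 ± 0.21, TAGLN 2.16 ± 0.20, TPM1 0.95 ± 0.11 and CALD1 0.42 ± 0.08, with adjusted p = 0.000756 for CALD1 and smaller values for the others; CNN1 had 2.04 ± 0.41 (adjusted p = 0.000828). Co-culture against CM gave 3 of 8 higher, where 9.09% of all genes were called higher and 17% in either direction: MYL9 2.73 ± 0.21, TAGLN 2.26 ± 0.21 and MYLK2 0.64 ± 0.13 (adjusted p = 0.00197). CNN1 had 2.68 ± 0.45. A replicate block added TPM1 and MYLK as higher and TPM2 as lower in this comparison.

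MSC senescence made no called difference to any of the genes in edgeR with the low-count filter. Other settings made calls: DESeq2 called MYLK2 higher in senescent than in young CM (adjusted p = 0.0240), as did edgeR without the filter (0.0330), which also called MYL9 higher in senescent than in young co-culture (0.000472) and for the senescence effect in co-culture against CM (0.0334). None of 8 was called between senescent ECM and young ECM, where 0 of 18015 genes were called by edgeR and 141 had an unadjusted p under 0.05, and none of 8 between senescent CM and young CM, where 0.0167% of all genes were. The effect of senescence was also compared between modes. None of 9 genes was called for CM against ECM, co-culture against CM or co-culture against ECM, where 0.00541%, 0.103% and 0.0487% of all genes were. The widest of these differences was that of MYL9 for co-culture against CM, at 1.24 ± 0.40 (adjusted p = 0.507).

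Other parts of the contractile pathway were read from lists. Of 18 other actin, myosin and thin-filament genes tested, MYH10, a non-muscle myosin heavy chain, rose and CNN3, a calponin of non-muscle cells, fell in senescent co-culture, and MYH10 alone rose in young co-culture. These shares, of 18, lie near the 8.05% and 9.68% of all genes called in either direction. MYH10 had 0.766 ± 0.216 CPM in senescent co-culture and 1.12 ± 0.13 CPM in young co-culture, against 0.292 ± 0.073 CPM in control (log2 1.39 ± 0.29 and 1.94 ± 0.28, adjusted p = 0.0107 and 0.00129). CNN3 fell by 0.66 ± 0.15 with senescent MSCs (adjusted p = 0.0174). The list median was −0.053 in senescent and −0.063 in young co-culture, beside 0.016 and 0.015 over all genes. Among the 4 companion lists described here, no gene was called on senescent ECM or in either CM, and 1 on young ECM.

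Of 20 genes that control light chain phosphorylation, 2 were higher and none lower in senescent co-culture, and 2 higher and 1 lower in young co-culture, counts near the shares over all genes (8.05% and 9.68% in either direction). PRKG1, 1 of the 2 in each, passed the filter only through co-culture. RHOB, a small GTPase, had 199 ± 20 CPM in senescent and 186 ± 5 CPM in young co-culture, against 69.7 ± 14.0 CPM in control (1.52 ± 0.16 and 1.42 ± 0.16, adjusted p = 0.000156 and 0.000299). It was also the 1 gene of this list called on ECM, at 0.89 ± 0.18 on young ECM (adjusted p = 0.0357), a call lost without young ECM replicate 2 or 4 or control replicate 3 or 4. PRKG1, the cGMP-dependent kinase that relaxes smooth muscle, rose by 3.07 ± 0.44 and 2.07 ± 0.46 (adjusted p = 0.00109 and 0.016), with 0.317 and 0.157 CPM against 0.0379 CPM in control. PPP1R14B, which inhibits a phosphatase, fell by 0.60 ± 0.15 in young co-culture (adjusted p = 0.0294).

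Among 18 genes of SRF, its coactivators and the TGF-beta inputs, 4 were higher in each co-culture and none lower, where 5.82% and 6.71% of all genes were called higher in senescent and young co-culture. These were TGFB2 and TGFB3, TGF-beta ligands, SMAD7, the inhibitor that TGF-beta signalling induces, and STAT3, a cytokine-activated transcription factor. SMAD7 had 20.1 ± 2.7 CPM in senescent and 17.9 ± 4.5 CPM in young co-culture, against 6.74 ± 2.5 CPM in control (1.58 ± 0.28 and 1.41 ± 0.27, adjusted p = 0.00404 and 0.0079). TGFB2 rose by 1.38 ± 0.32 and 1.85 ± 0.31, and TGFB3, at 1.2 ± 0.11 and 0.986 ± 0.190 CPM, by 1.04 ± 0.21 and 0.75 ± 0.21 (adjusted p = 0.0094 and 0.0426). STAT3 rose by 0.63 ± 0.14 and 0.64 ± 0.14, values that became −0.28 and −0.18 with endothelial marker scaling. The list median was 0.16 in senescent and 0.10 in young co-culture.

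Of 9 smooth muscle and mural genes that pass the filter on control libraries alone, 3 were higher in senescent co-culture, and 3 were higher and 1 lower in young co-culture, with medians of 0.48 and 0.51, beside 5.82% and 6.71% of all genes called higher. LMOD1, KCNJ8 and CSPG4 passed only through the co-cultures, where 3 were called with senescent and 2 with young MSCs. The 17 listed genes together were not higher in co-culture. They summed to 307 to 310 CPM in senescent co-culture, 302 to 347 CPM in young co-culture and 299 to 420 CPM in control. The genes named below are those with the largest called changes. NOTCH3, a Notch receptor of mural cells, had 3.33 ± 0.37 CPM in senescent and 0.683 ± 0.150 CPM in young co-culture, against 0.142 ± 0.021 CPM in control (4.55 ± 0.26 and 2.26 ± 0.25, adjusted p = 3.4e-06 and 0.000262). It was the 1 gene of the 4 companion lists called between senescent and young co-culture, at 2.29 ± 0.22 (adjusted p = 0.000799). PDGFRB, the receptor for PDGF on mural and stromal cells, rose by 2.24 ± 0.19 and 1.33 ± 0.19, and LMOD1, an actin nucleator of smooth muscle, by 2.32 ± 0.53 and 1.88 ± 0.54, with 0.119 and 0.0876 CPM against 0.0235 CPM in control; the LMOD1 call in young co-culture (adjusted p = 0.048) was lost without any 1 of its 6 libraries. KCNJ8, a potassium channel of mural cells, rose in senescent co-culture, by 3.88 ± 0.71, and was not called in young co-culture. CSPG4, a pericyte proteoglycan, rose in young co-culture, by 2.08 ± 0.36, and was also called higher in senescent co-culture. Control libraries held 1 to 5 counts of PRKG1, 2 to 3 of LMOD1 and 0 to 2 of KCNJ8, so their fitted fold changes are no bounds. PDGFRB is also on the stromal list, whose markers are given above.

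Some members share exon sequence with genes on the opposite strand: TAGLN shares 446 bases with PCSK7, ACTA2 380 with FAS and TPM1 2070 with an antisense gene. The library kit marks strand, but the strand setting of the counting is not given in the sources used here, so reads from such bases cannot be assigned with certainty. ACTA2 and MYL9 also have close relatives among actins and light chains, and how reads matching several genes were counted is likewise not given.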

How the data were processed

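Poly(A) RNA was sequenced in 27 libraries; the labels' protocols name a kit that marks strand. The submitters' processing notes name HISAT2 2.2.1 for alignment, featureCounts 2.0.1 for counting and GRCh38 (hg38) as the build. The deposited values are whole-number counts per gene, not normalised. Of 60648 entries, 44 Y copies of pseudoautosomal genes were left out. Symbols came from a gene name table and positions from GENCODE 29.

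The test was edgeR 4.0.16 (quasi-likelihood, 2-sided, filterByExpr with at least 10 counts, TMM, Benjamini-Hochberg, threshold 0.05, R 4.3.3) in 3 fits on replicates 2 to 4: control, ECM and CM (15 libraries, 18015 genes), control and co-culture (9 libraries, 17729 genes), and all groups (21 libraries, 18492 genes), with 15 comparisons in all. The procedure was tested on simulated counts. Levels are CPM scaled by TMM over all 27 libraries. The level of 3 counts, on the same scale, was taken as the limit of detection, and covers counting error only. Between any 2 libraries of a group, chi-square over its degrees of freedom was at least 21.9, so none was counted as a repeat of another. Alternatives were DESeq2 1.42.0, other scalings, no filter, all replicates, 1 fit for all libraries, a replicate block and leaving out each library.

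Same-numbered libraries deviated together, with every pair over 0.1, in young ECM (r = 0.577, 0.689 and 0.518), young CM (0.473, 0.735 and 0.577) and young co-culture (0.583, 0.739 and 0.232) against control, taken from the replicate numbers of the labels; the replicate block changed no call of a contractile gene there.

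The members, gene lists and tests were chosen with earlier results of these data known. All 10 genes are named; companions are the 4 largest called changes per list, and the genes most like a member are the 2 protein-coding genes with the highest Pearson r among those averaging 5 CPM or more in some group.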

Additional observations from a re-analysis of the deposited data

Results flagged for a closer look

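In a group of 4 libraries, a library was singled out where its gap to the nearest other, as a share of the range of the group, was above Dixon's 95% critical value. Of 54 gene and group pairs with at least 20 counts summed over the 4 libraries, 40 met it, and in all 40 the library was replicate 1. CNN1 on ECM, in CM and in control reached 20 counts only through replicate 1, so it had to be singled out there. Chance alone singles out about 1 in 20 such groups. The pairs share the same few replicate 1 libraries and are not independent, so the 40 cannot be set against that rate. For ACTA2, replicate 1 had 39.2 CPM on young ECM, 120 CPM in senescent CM, 160 CPM in young CM and 159 CPM in control. For TAGLN, replicate 1 had 682 CPM on senescent ECM, 657 CPM on young ECM, 1111 CPM in senescent CM, 1098 CPM in young CM and 1101 CPM in control. For CNN1, replicate 1 had 2.93 CPM on senescent ECM, 2.64 CPM on young ECM, 13.6 CPM in senescent CM, 16 CPM in young CM and 16.9 CPM in control. For MYL9, replicate 1 had 596 CPM on senescent ECM, 571 CPM on young ECM, 1119 CPM in senescent CM, 1018 CPM in young CM and 935 CPM in control. For TPM1, replicate 1 had 549 CPM on senescent ECM, 580 CPM on young ECM, 904 CPM in young CM and 1131 CPM in control. For TPM2, replicate 1 had 678 CPM on senescent ECM, 621 CPM on young ECM, 720 CPM in senescent CM, 657 CPM in young CM, 425 CPM in young co-culture and 864 CPM in control. For CALD1, replicate 1 had 322 CPM on senescent ECM, 352 CPM on young ECM, 471 CPM in senescent CM, 467 CPM in young CM and 632 CPM in control. For MYLK, replicate 1 had 68.0 CPM on senescent ECM and 73.7 CPM in senescent CM. For MYLK2, replicate 1 had 13.9 CPM on senescent ECM, 16.6 CPM on young ECM, 87.1 CPM in young co-culture and 19.8 CPM in control. In young co-culture the library stood apart for TPM2 and MYLK2 only, by a value above the other 3 in both. Both values carry that library's TMM factor of 0.459, which raises its CPM. Its CALD1, at 28.7 CPM, came just short of the critical value on the low side.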

How the results depend on the processing

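Counts of called contractile genes were unchanged or within 1.5 times under RLE scaling and library totals (chosen after seeing the data), and under 1 fit of all 21 libraries. With all replicates, none was called on senescent or young ECM, in senescent CM or in senescent or young co-culture against control (main counts 1, 1, 1, 5 and 5); 1 was called for ECM against CM, 0 for co-culture against CM and 1 for co-culture against ECM (main counts 4, 4 and 6). DESeq2 called 1 in young CM against control and 1 in senescent against young CM (MYLK2), and leaving out the low-count filter called 1 in senescent against young CM, 1 in senescent against young co-culture and 1 for the senescence effect in co-culture against that in CM (MYL9, 1.23, adjusted p = 0.0334), where edgeR with the filter called 0. The replicate block called 7 for co-culture against CM, 6 higher and 1 lower, adding TPM1 (0.28), MYLK (0.34) and TPM2 (-0.32), and scaling by endothelial markers called 7 in senescent co-culture, 3 higher and 4 lower, and 8 in young co-culture, 4 higher and 4 lower, where 2.06% and 1.93% of all genes were called higher and 75.8% and 68.6% lower. Counts in this section include CNN1. Leaving out each library in turn gave 3 to 5 in senescent co-culture against control, 3 without senescent co-culture replicate 2 or 3. The causes were not tested. Outside the young groups against control, not every pair of same-numbered libraries deviated together, and pairs were not examined for comparisons between modes. In those comparisons the block moved no other count of contractile genes by over 1.5 times. With the block in edgeR, CNN1 in senescent co-culture had adjusted p = 0.0524.

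A value is said to change sign here only where it or the main value was called. With all replicates, young co-culture against control gave TAGLN -4.15, CNN1 -4.26, MYL9 -4.70, TPM1 -0.20, MYH10 -4.41, PRKG1 -3.73, PPP1R14B 0.91, TGFB2 -2.50, TGFB3 -0.66, NOTCH3 -5.66, CSPG4 -5.35, LMOD1 -5.61 and PDGFRB -3.44; senescent co-culture gave TAGLN -4.31, CNN1 -4.69, MYL9 -4.19, TPM1 -0.28, MYH10 -4.69, PRKG1 -2.67, TGFB2 -2.59, TGFB3 -0.10, NOTCH3 -3.39, KCNJ8 -3.30, LMOD1 -5.45 and PDGFRB -2.65. Co-culture against CM gave TAGLN -4.15, CNN1 -4.20 and MYL9 -4.55, and co-culture against ECM TAGLN -3.43, CNN1 -1.86, MYL9 -3.69 and CALD1 -0.014. The replicate 1 libraries of control, ECM and CM enter these values. Endothelial marker scaling gave TPM1 -0.25, CALD1 -0.74, MYLK -0.81 and STAT3 -0.28 in senescent co-culture, and ACTA2 -0.77, TPM1 -0.17, CALD1 -0.73, MYLK -0.48, TGFB3 -0.081 and STAT3 -0.18 in young co-culture. Those markers were themselves higher in co-culture, 10 of 13 with senescent and 11 of 13 with young MSCs. Relative to the shifted median, MYLK2 kept 1.85 and 1.83, TAGLN 2.62 and 2.23, and MYL9 3.29 and 2.34. Depth limits CNN1, MYH11, LMOD1, KCNJ8 and PRKG1, with few or no counts outside co-culture.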

Other observations

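Companion genes were also compared between modes, over both MSC states. For ECM against CM, MYH10, the non-muscle myosin heavy chain, was lower (-1.03 ± 0.22, adjusted p = 0.00285), as was CNN2, a calponin (-0.70 ± 0.14, adjusted p = 0.00144), while TPM4, a tropomyosin, was higher (0.37 ± 0.08, adjusted p = 0.00302); these were 3 of 19 tested actin, myosin and thin-filament genes, near the 15.5% of all genes called in either direction. In the mural list ABCC9, a potassium channel subunit, was higher on ECM (1.60 ± 0.21, adjusted p = 2.89e-05), and MCAM, an adhesion molecule of endothelium and mural cells, was lower (-0.92 ± 0.12, adjusted p = 2.8e-05). For co-culture against ECM, TPM4 was lower (-0.53 ± 0.08, adjusted p = 4.36e-05) and so were RHOC, a small GTPase (-0.90 ± 0.19, adjusted p = 0.00131), and ACTN4, an actin crosslinker (-0.71 ± 0.17, adjusted p = 0.00362). MYH10 (1.83 ± 0.22) and RHOB (0.60 ± 0.12) were higher. Of 18 genes passing the filter on control libraries alone, 2 actin-list genes were higher and 4 lower. Of 18 light chain control genes passing so, 1 was higher and 5 lower. PRKG1 and MYLK4, also higher, did not pass on control alone. Over all genes, 26.9% were called in either direction.

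EDN1, second among the genes most like MYLK2, had a mean of 67.5 CPM on senescent ECM, 57.7 on young ECM, 219 in senescent CM, 157 in young CM, 269 in senescent co-culture, 325 in young co-culture and 113 in control. In replicate 1 it lay at 48.6, 58.9, 63.2 and 53.7 CPM on senescent ECM, young ECM, senescent CM and young CM, at 45.5 CPM in young co-culture and at 76.8 CPM in control, and so did not follow MYLK2 there.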
